A study of Homo sapiens with 24 samples.

Results

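The clustered replication-dependent histone genes were taken as every row of the deposited expression table whose gene symbol begins with HIST1H, HIST2H, HIST3H or HIST4H, the older names of the H1, H2A, H2B, H3 and H4 genes that lie together in the histone clusters. This gave 69 genes of 60617 rows. In GENCODE v29 (GRCh38), 53 of the 69 lay on chromosome 6, 15 on chromosome 1 and 1 on chromosome 12. They comprised 6 H1, 17 H2A, 19 H2B, 12 H3 and 15 H4 genes, of which 68 were annotated as protein-coding and 1, HIST2H2BC, as a transcribed pseudogene. Of the 69 genes, 28 (40.6%) had a mean of 1 or more CPM (counts per 1e6) over all libraries and 41 lay below it.

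The libraries were polyA-selected RNA of SKBR3 cells, an established human breast carcinoma line with amplified ERBB2, which encodes the receptor HER2. They formed 3 groups of 8. Biosimilar cells received ApoTras, a biosimilar of trastuzumab. Herceptin cells received the originator antibody Herceptin, which is trastuzumab directed at HER2, at 4 µg/ml. The antibodies were added in phosphate-buffered saline, and whether the dose given beside Herceptin also holds for ApoTras is not clear from the labels. Control cells received no treatment, and no group received the buffer alone. All groups shared the same line, medium with 10% fetal bovine serum, seeding at 6500 cells per cm2, medium changes on days 1 and 4 and RNA extraction on day 7. The study set the biosimilar beside Herceptin, and both beside Control. The labels give 8 replicates per group set up at the start, without plate or batch, so that the spread behind each p-value is that of these libraries and may be technical.

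Library totals were 9070186 to 11880165 expected counts in Biosimilar, 10747837 to 12260086 in Herceptin and 9116591 to 10759115 in Control. The 6 markers of SKBR3 cells (ERBB2, GRB7, KRT8, KRT18, KRT19 and EPCAM) summed to 15060 to 16580 CPM in Biosimilar, 15710 to 16380 in Herceptin and 14160 to 15520 in Control. Of these 6, ERBB2, GRB7 and KRT18 rose with both antibodies and KRT8 with Herceptin, and none fell. The 4 leukocyte markers summed to at most 1.59 CPM in Biosimilar, 2.17 in Herceptin and 1.68 in Control, and the 4 fibroblast markers to at most 0.418 CPM in Biosimilar, 0.559 in Herceptin and 0.565 in Control. Of the 4 endothelial markers, PECAM1, VWF and KDR averaged under 1 CPM in each group. The remaining one, CDH5, averaged 45.1 ± 2.55 CPM in Biosimilar, 47.1 ± 3.71 in Herceptin and 34.8 ± 2.38 in Control (SD, n = 8 each), and rose with both antibodies.

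Replication-dependent histone genes supply the core histones, which form the nucleosome, and linker histone H1, which binds DNA between nucleosomes, while the genome is copied in S phase. Their mRNAs characteristically end in a conserved stem-loop that is bound by SLBP and cut by a complex containing the U7 snRNP, and they carry no polyA tail, so that polyA selection captures them poorly. Some of these genes can also make longer transcripts that read through the stem-loop to a downstream polyA signal, a form described in differentiating and non-dividing cells.

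The stem-loops are shown because they are the letters that set these mRNAs apart, and the ends of the same transcripts because a polyA tail would be added there. Each line gives 30 bases of a GENCODE v29 transcript, with the stem-loop of 16 bases in capitals.
HIST1H2AC-202: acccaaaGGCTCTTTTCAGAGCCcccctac
HIST1H3G-201: ttaaaaaGGCTCTTTTAAGAGCCgcctact
HIST1H3E-202: atccaaaGGCTCTTCTCAGAGCCaaccact
HIST1H4H-204: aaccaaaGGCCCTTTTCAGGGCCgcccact
HIST2H4B-201: tcccaaaGGCCCTTTTTAGGGCCgaccact
The first of these forms was found in 17 members, none of them an H4 gene. The form in HIST1H4H was found in 5 members and that in HIST2H4B in 3, all of them H4 genes. The form in HIST1H3G was found in 5 members and that in HIST1H3E in 1. After the stem-loop, HIST1H2AC-202 ran on for 1114 bases, HIST1H3G-201 for 1518, HIST1H3E-202 for 1862, HIST1H4H-204 for 630 and HIST2H4B-201 for 690.

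The next lines give the last 30 bases of annotated transcripts, with the polyA signal (AATAAA or ATTAAA) in capitals.
HIST1H2AC-202: agcctggcatgaggtAATAAAaggtaatgc
HIST1H3G-201: aatagtttAATAAAacctatgttcctctca
HIST1H4H-204: aggtgAATAAAatcaggtcactcttctgct
HIST3H2A-201: tctgatATTAAAagtatttatgatctctaa
HIST1H2BD-201: taattAATAAAatctgcggagaattgtaaa
HIST1H2BD had 2 such ends: HIST1H2BD-201 held a polyA signal and no stem-loop within the mismatches allowed, whereas HIST1H2BD-202 held a stem-loop 39 bases before its end and the signal AATAAA after it, 27 bases before that end.

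With up to 2 mismatches to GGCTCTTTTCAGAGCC, the run with complementary arms shared by the most members, and read on the transcript strand, 30 of the 69 members (43.5%) had a stem-loop in an annotated transcript, against 0.368% of 19854 other protein-coding genes. HIST1H4I, HIST2H4A and HIST2H4B, with the form printed for HIST2H4B, had 3 mismatches and are not among the 30. A polyA signal lay in the last 50 bases of a transcript for 24 members (34.8%), against 84.4% of the other protein-coding genes. All transcripts of 30 members were annotated as coding sequence only, which leaves no room for either.

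The level in these libraries differed with the annotated 3′ end. Of the 24 members with a polyA signal near an annotated end, 22 (91.7%) reached 1 CPM, with a median of 5.27 CPM and, per length, 5.92 TPM (transcripts per 1e6). Of the 45 members without one, 6 (13.3%) reached 1 CPM, with a median of 0.0682 CPM and 0.48 TPM. The 45 include all 30 coding-only members, whose models can hold no signal and take no reads from beyond the coding sequence. Of these 30, 2 reached 1 CPM, as did 26 of the 39 members with sequence outside the coding part. Annotation and counted level are thus tied. HIST1H4J counts among the 24, although its transcript ends 6 bases after the stem-loop. Grouped by the stem-loop instead, 18 of the 23 members with a transcript running at least 50 bases past it reached 1 CPM, as did 4 of the 7 whose transcripts ended sooner and 6 of the 39 with no match within 2 mismatches. Those 39 include the 3 H4 genes with 3 mismatches, of which HIST2H4A and HIST2H4B reached 1 CPM. The 6 without a signal that reached 1 CPM were HIST1H1C, HIST1H2BK, HIST1H2BG, HIST1H4C, HIST3H2BB and HIST1H2BF. Of these, HIST1H1C and HIST1H2BK were the 2 members of the coding-only class to reach 1 CPM. These are counts over the annotated members, with no test, and reads at the ends themselves were not analysed here.

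**Figure D1:**
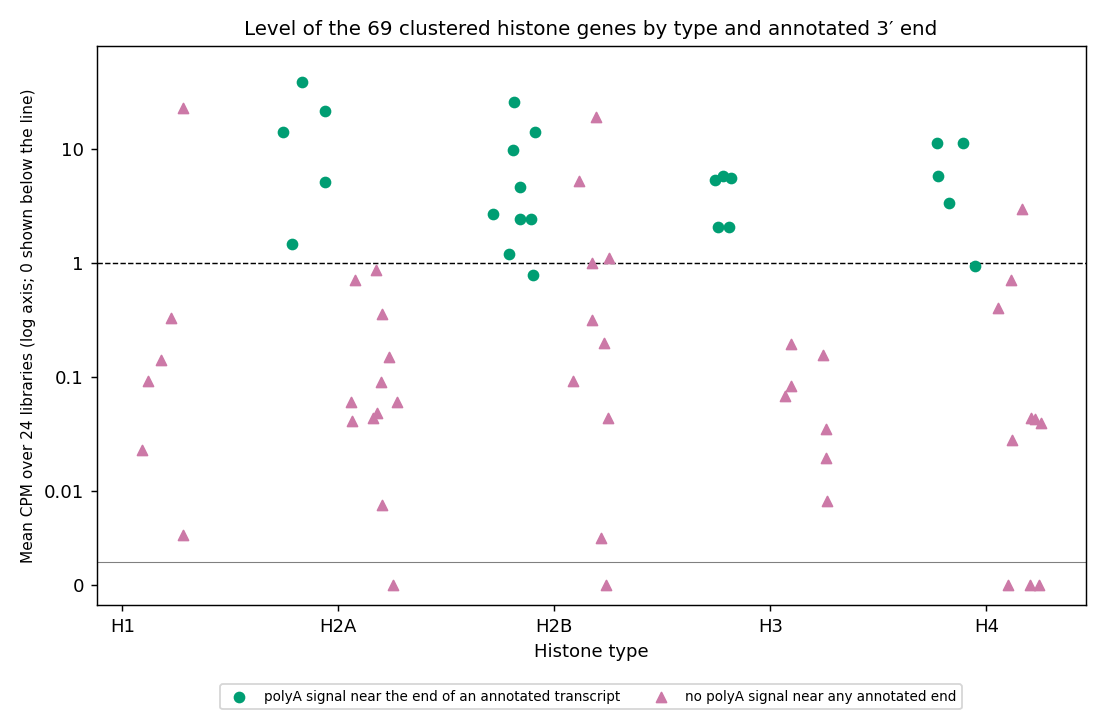
Mean level of each of the 69 genes over the 24 libraries, on a log axis in CPM, with 1 point per gene, by histone type and by whether an annotated transcript has a polyA signal in its last 50 bases. The dashed line marks 1 CPM, which 22 of 24 genes with a signal and 6 of 45 without one reached, and the 5 genes at 0 in every library are drawn below the grey line. The 45 include 30 genes annotated as coding sequence only.

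Reads were concentrated in a few genes. The 5 highest held 49.9% of the summed CPM of all 69, and the 28 at 1 CPM or more held 97.2%. By type, H2B genes held 35.5% of that sum, H2A 32.5%, H4 14.4%, H1 9.17% and H3 8.37%. The most reads fell on HIST1H2AC (38.3 CPM), HIST2H2BC (25.6), HIST1H1C (22.8), HIST2H2AA4 (21.7) and HIST1H2BK (19.1). In TPM, which divide by the length of the counted transcripts, HIST1H2BK led with 157, ahead of HIST2H2AA4 (85.8), HIST1H1C (73.6), HIST1H2AC (36.2) and HIST1H2BD (33.3), while HIST2H2BC, whose annotated transcript is long, had 5.51. Of the 41 genes under 1 CPM, HIST1H4E (0.947 CPM) and HIST1H2AI (0.872) passed the filter on low counts. The remaining 39 were not tested. Of those, 34 had a median of 0.0645 CPM and at most 0.791, and 5 (HIST1H2AA, HIST1H2BA, HIST1H4G, HIST1H4K and HIST1H4L) were at 0 in all 24 libraries.

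By cluster, 17 of 53 HIST1 genes, 9 of 12 HIST2 genes, 2 of 3 HIST3 genes and 0 of 1 HIST4 genes reached 1 CPM. There were 13 pairs of members set head to head, with their starts at most 500 bases apart on opposite strands. In 4 of these both genes reached 1 CPM, in 5 neither did and in 4 only 1 did. HIST1H2BK at 19.1 CPM, for example, lay 330 bases from HIST1H2AH at 0.0439 CPM.

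Promoters of 63 of the 69 members were matched in RefSeq (GRCh38.p14), each covering 250 bases before to 50 after the start. HIST1H2AH, HIST1H3I, HIST1H3J, HIST1H4A, HIST1H4C and HIST2H2BC were not matched. Searched on both strands, the octamer ATTTGCAT, which binds OCT1 and is a known element of H2B promoters, was in 14 of 18 H2B and 11 of 16 H2A promoters and in 0 of 6 H1, 0 of 10 H3 and 0 of 13 H4 promoters, against 1.82% of all 27305 promoters. The letters CCAAT were in all 6 H1, 16 H2A, 18 H2B and 10 H3 promoters matched and in 3 of 13 H4 promoters, against 35.6% of all. The H1 box AAACACA was in 6 of 6 H1 promoters, 1 of 16 H2A, 2 of 10 H3, 0 of 18 H2B and 0 of 13 H4 promoters, against 5.78% of all. TATAAA was in 43 of the 63, against 12.1% of all. In the promoters printed here no motif overlapped another, and a match here is a description and not a measured binding site. At 1 CPM or more, 10 of 26 matched members held the octamer, and below it 15 of 37. Promoters of head-to-head genes can overlap, so that 1 match can count for both an H2A and an H2B gene. The octamers of HIST1H2AC and HIST1H2BC, found on opposite strands, are 1 such site. The counts by type are therefore not all of separate sites.

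A pair of promoters is printed for the genes that led the H2A and H1 types, and another for the member that fell with both antibodies. In capitals are matches to these 4 motifs on either strand. They lie at chr6:26123922-26124221 on the plus strand (HIST1H2AC), chr6:26056421-26056720 on the minus strand (HIST1H1C) and chr6:26271364-26271663 on the minus strand (HIST1H3G).
HIST1H2AC: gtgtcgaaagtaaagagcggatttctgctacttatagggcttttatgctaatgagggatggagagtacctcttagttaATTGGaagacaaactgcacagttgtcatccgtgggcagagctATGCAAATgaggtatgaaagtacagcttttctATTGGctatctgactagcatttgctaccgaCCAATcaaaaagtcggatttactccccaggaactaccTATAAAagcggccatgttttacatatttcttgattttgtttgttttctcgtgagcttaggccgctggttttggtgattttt
HIST1H1C: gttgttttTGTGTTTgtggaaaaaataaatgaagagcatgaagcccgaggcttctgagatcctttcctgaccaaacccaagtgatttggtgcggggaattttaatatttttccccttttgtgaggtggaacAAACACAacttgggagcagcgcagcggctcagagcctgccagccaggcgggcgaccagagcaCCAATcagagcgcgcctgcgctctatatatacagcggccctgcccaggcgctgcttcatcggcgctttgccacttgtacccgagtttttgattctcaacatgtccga
HIST1H3G: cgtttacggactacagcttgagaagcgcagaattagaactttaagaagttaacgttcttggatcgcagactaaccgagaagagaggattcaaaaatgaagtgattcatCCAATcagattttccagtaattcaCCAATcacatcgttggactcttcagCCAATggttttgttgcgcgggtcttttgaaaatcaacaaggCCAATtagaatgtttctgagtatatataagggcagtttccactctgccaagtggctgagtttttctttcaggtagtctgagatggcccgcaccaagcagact
HIST1H2AC held 1 octamer, and its CCAAT letters stood in both orientations. HIST1H1C held the H1 box once on each strand. HIST1H3G held CCAAT at 4 positions and neither the octamer nor TATAAA.

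Each antibody was compared with Control in 1 edgeR quasi-likelihood fit of all 24 libraries and 13536 genes, with a Benjamini-Hochberg adjusted p under 0.05 as the threshold. Of the 69 genes, 30 passed the filter on low counts. With the biosimilar, 10 rose, 4 fell and 16 did not pass the test, where 23.4% of all tested genes rose and 24.6% fell (48% in either direction). With Herceptin, 10 rose, 1 fell and 19 did not pass, where 22.7% of all tested genes rose and 23.8% fell (46.4% in either direction). The 10 that rose are 33.3% of the members tested in each comparison. With the biosimilar they include HIST2H2AA3, which passed the filter only through the antibody groups and whose reads are divided with a near-identical copy, and 9 rose without it. Those that fell are 13.3% with the biosimilar and 3.33% with Herceptin. The median log2 fold change of the tested members was 0.13 with the biosimilar and 0.16 with Herceptin, against -0.0026 and -0.00052 over all tested genes. Over the 21 members whose expected counts were whole in at least 50% of the libraries, the medians were -0.038 with the biosimilar (8 rose, 4 fell) and -0.0069 with Herceptin (7 rose, 1 fell). These 21 still include HIST2H2AA3, whose expected count before rounding was exactly 0 in 12 libraries, and it is among the 8 that rose with the biosimilar. These shares and medians rest on the members that passed the filter, and no test set them against other genes. In bulk libraries, a different share of cells in S phase and a different amount of histone mRNA per cell cannot be told apart. In polyA-selected libraries, neither can be told apart from a different share of these mRNAs with a polyA tail.

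Both comparisons use the same Control libraries. There were 8 members that rose with both antibodies (HIST1H2AC, HIST1H1C, HIST1H2BK, HIST1H2BD, HIST1H4H, HIST2H2BE, HIST1H3E and HIST1H3H) and 1 that fell with both (HIST1H3G). HIST1H2BF passed the test as higher with the biosimilar alone, and HIST2H2AA4 and HIST1H2BC with Herceptin alone. The edgeR call of HIST2H2AA3 was also with the biosimilar alone, but DESeq2 called it with Herceptin too (adjusted p = 0.00314). HIST2H2AA3 and HIST2H2AA4 are copies that share reads. With the copies summed, the pair rose with both antibodies, as described further on. HIST3H2A, HIST1H4C and HIST1H2BJ passed as lower with the biosimilar alone. The direct comparison of the antibodies is given further on. The 8 libraries of an antibody all lay above or all below the 8 of Control for 3 members with the biosimilar (10.0% of those tested, against 14.9% of all genes) and for 7 with Herceptin (23.3%, against 17% of all genes).

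**Figure D2:**
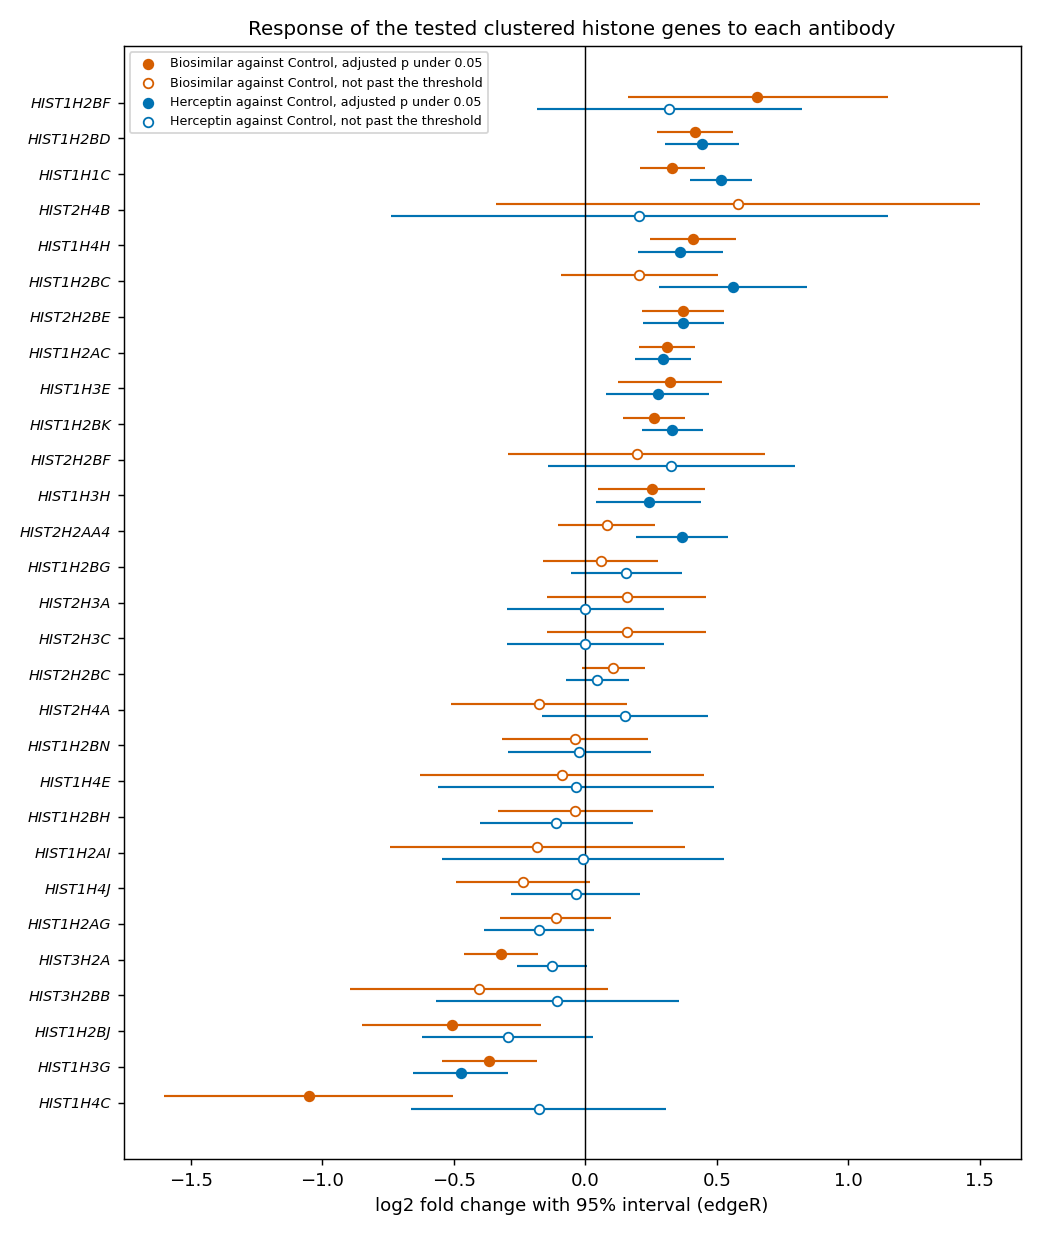
Log2 fold change of 29 tested genes against Control, with the 95% interval from edgeR, for the biosimilar (upper mark of each pair) and Herceptin (lower mark), filled where the adjusted p was under 0.05. HIST2H2AA3, which rounded to 0 counts in every Control library, is left out. The changes that passed the test lie between -1.05 and 0.65, and HIST1H4C has the lowest value with the biosimilar.

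HIST1H1C, on chromosome 6 from 26055787 to 26056428, encodes the linker histone H1.2 and was the only H1 gene of 6 to reach 1 CPM. Its lowest, median and highest values were 20.4, 23.8 and 25.2 CPM in Biosimilar, 23.2, 26.7 and 28.4 in Herceptin and 14.8, 18.9 and 21.3 in Control. Every Herceptin library lay above every Control library, and the Biosimilar range overlapped both. HIST1H1C rose with the biosimilar, with a log2 fold change of 0.33 (SE 0.0609, adjusted p = 1.75e-05), and with Herceptin by 0.52 (SE 0.0588, adjusted p = 1.48e-09), the smallest adjusted p of the 30 tested members. The other 5 H1 genes were untested, at 0.00415 to 0.328 CPM.

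Among H2A genes, 2 of 6 tested rose (HIST1H2AC and HIST2H2AA3) and 1 fell with the biosimilar, and 2 rose and none fell with Herceptin. HIST1H2AC, on chromosome 6 from 26124145 to 26139116, drew the most reads of all members. It had 36.9, 40.7 and 45.8 CPM (lowest, median and highest) in Biosimilar, 36.8, 39.9 and 44.5 in Herceptin and 26.4, 34.6 and 36.4 in Control. All 16 antibody-treated libraries lay above the 8 of Control. It rose by a log2 fold change of 0.31 with the biosimilar (SE 0.0535, adjusted p = 6.11e-06) and 0.30 with Herceptin (SE 0.0528, adjusted p = 1.23e-05).

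HIST3H2A, on chromosome 1 from 228456979 to 228457873, moved the other way. It had 10.7, 12.3 and 15.2 CPM in Biosimilar, 12.3, 14.6 and 15.7 in Herceptin and 13.8, 15.9 and 16.8 in Control. The 3 ranges overlapped, with all 8 Biosimilar libraries below the Control median. It fell with the biosimilar, with a log2 fold change of -0.32 (SE 0.0687, adjusted p = 0.000161). With Herceptin its log2 fold change was -0.12 (SE 0.066, adjusted p = 0.121). Its head-to-head neighbour HIST3H2BB, an H2B gene 233 bases away, averaged 0.943 ± 0.189 CPM in Biosimilar, 1.16 ± 0.285 in Herceptin and 1.24 ± 0.549 in Control and did not pass either test. HIST1H2AG averaged 5.09 ± 0.900 CPM in Biosimilar, 4.88 ± 0.583 in Herceptin and 5.51 ± 0.560 in Control (SD, n = 8 each) and did not pass either test, nor did HIST1H2AI.

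Among H2B genes, 12 were tested. With the biosimilar 4 rose and 1 fell, and with Herceptin 4 rose and none fell. HIST1H2BK, on chromosome 6 from 27146418 to 27146798, had 18.3, 19.4 and 23.3 CPM in Biosimilar, 18.4, 20.5 and 24 in Herceptin and 15.5, 16.5 and 18.2 in Control. All antibody-treated libraries lay above those of Control. It rose by a log2 fold change of 0.26 with the biosimilar (SE 0.0579, adjusted p = 0.000248) and 0.33 with Herceptin (SE 0.0566, adjusted p = 5.61e-06). Its expected counts were not whole in any library, as RSEM gives when reads also match a similar sequence, so that its level is uncertain.

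HIST1H2BD, on chromosome 6 from 26158146 to 26171349, had 13.2, 15.2 and 17.8 CPM in Biosimilar, 14.5, 15.4 and 17 in Herceptin and 9.06, 11.2 and 14.2 in Control. The Herceptin range lay above that of Control, and the Biosimilar range overlapped it. It rose by a log2 fold change of 0.42 with the biosimilar (SE 0.0708, adjusted p = 4.98e-06) and 0.44 with Herceptin (SE 0.0694, adjusted p = 1.19e-06). LARP1P1 overlaps it on the same strand and AL353759.1 on the other, and the strand setting of the counting is not given in the sources used here. HIST2H2BE, on chromosome 1 from 149884459 to 149886652, had 9.96, 10.4 and 12.7 CPM in Biosimilar, 9.04, 10.8 and 11.9 in Herceptin and 7.33, 7.91 and 9.41 in Control. All Biosimilar libraries lay above those of Control. It rose by 0.37 with each antibody (SE 0.077 with the biosimilar and 0.0757 with Herceptin, adjusted p = 0.000107 and 8.13e-05).

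HIST1H2BC, the head-to-head neighbour of HIST1H2AC with 218 bases between them, averaged 2.56 ± 0.294 CPM in Biosimilar, 3.26 ± 0.812 in Herceptin and 2.21 ± 0.317 in Control. It rose with Herceptin by a log2 fold change of 0.56 (SE 0.139, adjusted p = 0.00093), and every Herceptin library lay above those of Control. With the biosimilar the value was 0.21 (SE 0.147, adjusted p = 0.258). HIST1H2BF averaged 1.24 ± 0.355 CPM in Biosimilar, 0.988 ± 0.346 in Herceptin and 0.782 ± 0.284 in Control. It rose with the biosimilar by 0.65 (SE 0.243, adjusted p = 0.0243), a call that was lost without Control replicate 6 or Biosimilar replicate 4 (highest adjusted p = 0.0636).

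HIST1H2BJ, on chromosome 6 from 27125897 to 27132750, averaged 2.02 ± 0.675 CPM in Biosimilar, 2.37 ± 0.401 in Herceptin and 2.88 ± 0.557 in Control, and the ranges overlapped. It fell with the biosimilar by a log2 fold change of -0.51 (SE 0.168, adjusted p = 0.0115) and had -0.30 with Herceptin (SE 0.161, adjusted p = 0.134). The H2B pseudogene HIST2H2BC, on chromosome 1 from 149844498 to 149850937, had 25.3, 26.2 and 30.2 CPM in Biosimilar, 22.8, 25.5 and 29.3 in Herceptin and 20.2, 25.5 and 28.6 in Control. Its ranges overlapped, its expected counts were whole in no library, and it did not pass either test (adjusted p = 0.137 with the biosimilar and 0.555 with Herceptin). It passed with the biosimilar when Control replicate 8 was left out (adjusted p = 0.0471). The remaining H2B genes HIST1H2BG, HIST1H2BH, HIST1H2BN and HIST2H2BF, at means of 1.21 to 5.24 CPM, did not pass either test, with log2 fold changes of -0.039 to 0.20 with the biosimilar and -0.11 to 0.33 with Herceptin.

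**Figure D3:**
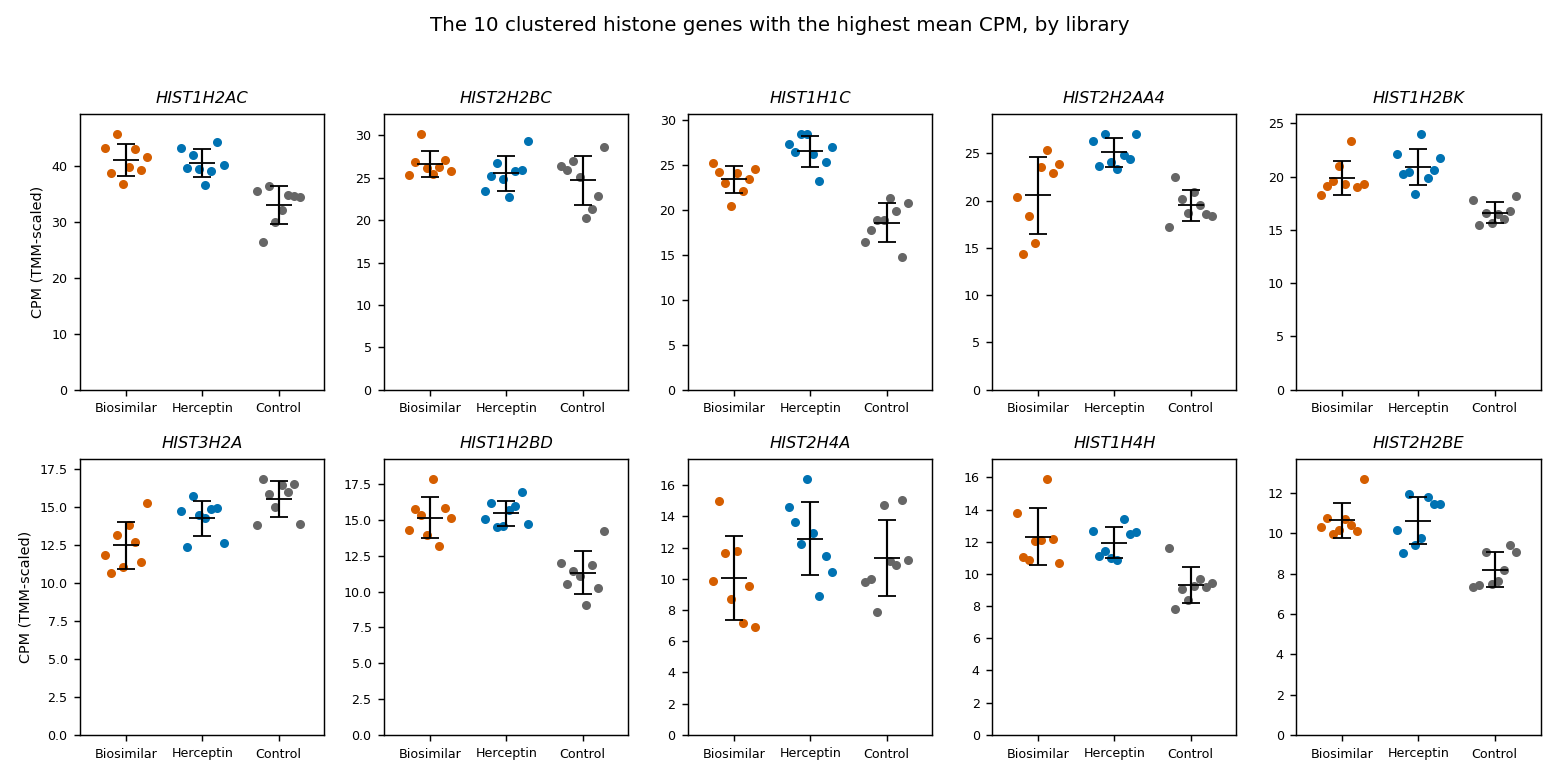
CPM of the 10 genes with the highest mean level, 1 point per library, for Biosimilar, Herceptin and Control (8 libraries each), with the mean and SD as bars and each vertical axis starting at 0. For HIST1H2AC and HIST1H2BK, the antibody-treated libraries all lie above those of Control, while HIST2H2BC and HIST2H4A overlap throughout.

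Among the 5 tested H3 genes, 2 rose and 1 fell with each antibody. HIST1H3G, on chromosome 6 from 26269405 to 26271815, had 4.74, 5.18 and 6.53 CPM in Biosimilar, 4.37, 4.94 and 5.63 in Herceptin and 5.91, 6.80 and 8.29 in Control. All Herceptin libraries lay below those of Control, and all 8 Biosimilar libraries below the Control median. It fell by a log2 fold change of -0.37 with the biosimilar (SE 0.0897, adjusted p = 0.000803) and -0.47 with Herceptin (SE 0.0891, adjusted p = 2.68e-05). HIST1H3E averaged 6.05 ± 0.671 CPM in Biosimilar, 5.87 ± 0.794 in Herceptin and 4.83 ± 0.506 in Control, and rose by 0.32 with the biosimilar (SE 0.0976, adjusted p = 0.00561) and 0.28 with Herceptin (SE 0.0966, adjusted p = 0.0173). Per length, the 2 genes lay close together, at a mean of 3.5 TPM for HIST1H3G and 3.30 for HIST1H3E.

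HIST1H3H averaged 5.72 ± 0.480 CPM in Biosimilar, 5.65 ± 0.772 in Herceptin and 4.77 ± 0.685 in Control. It rose by a log2 fold change of 0.25 with the biosimilar (SE 0.101, adjusted p = 0.0352) and 0.24 with Herceptin (SE 0.0991, adjusted p = 0.0423), near the threshold. It lost the call in 8 of the 24 fits that left out 1 library with the biosimilar (adjusted p up to 0.0787) and in 9 of 24 with Herceptin (up to 0.0959). HIST2H3A and HIST2H3C had identical values in every library, at 2.22 ± 0.322 CPM in Biosimilar, 1.98 ± 0.434 in Herceptin and 1.98 ± 0.231 in Control, so that they give 1 measurement, which did not pass either test.

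Among the 6 tested H4 genes, 1 rose and 1 fell with the biosimilar, and 1 rose and none fell with Herceptin. HIST1H4H, on chromosome 6 from 26277609 to 26285638, had 10.7, 12.1 and 15.9 CPM in Biosimilar, 10.9, 12 and 13.4 in Herceptin and 7.80, 9.25 and 11.6 in Control. The Control range overlapped both. It rose by a log2 fold change of 0.41 with the biosimilar (SE 0.0808, adjusted p = 4.8e-05) and 0.36 with Herceptin (SE 0.0799, adjusted p = 0.000256). HIST1H4J averaged 3.03 ± 0.408 CPM in Biosimilar, 3.47 ± 0.328 in Herceptin and 3.56 ± 0.726 in Control and passed neither test, but passed as lower with the biosimilar without Control replicate 4 (adjusted p = 0.0343). HIST1H4E did not pass either test.

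HIST1H4C, on chromosome 6 from 26103876 to 26104310, had the lowest log2 fold change of the tested members. The 8 Biosimilar libraries had 0.886, 0.418, 1.79, 1.48, 3.23, 3.97, 1.27 and 1.33 CPM in the order of their numbers. The Herceptin libraries had 3.25, 3.76, 3.37, 2.92, 4.50, 3.68, 3.91 and 1.55 CPM, and the Control libraries had 3.66, 4.56, 3.53, 3.00, 4.09, 3.85, 4.07 and 3.48 CPM. Biosimilar replicates 5 and 6 lay within the Control range, and the other 6 lay below every Control library, as did 2 Herceptin libraries. HIST1H4C fell with the biosimilar by a log2 fold change of -1.05 (SE 0.265, adjusted p = 0.00188), and in the fits that left out 1 library the value ran from -1.34 to -0.91. With Herceptin it was -0.18 (SE 0.236, adjusted p = 0.578). Its coefficient of variation between libraries beyond sampling, 31%, was 2.31 times that of genes at its level. No stem-loop, polyA signal or transcript beyond 435 bases was annotated for it.

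Short genes and RNAs known to lack a polyA tail were also read in these groups, with no test of either set. The 163 other tested genes of at most 500 bases had median log2 fold changes of -0.15 (biosimilar) and -0.012 (Herceptin), against 0.075 and 0.052 for genes over 4000 bases. With a length trend removed from each library, HIST1H2BJ was no longer past the threshold (adjusted p = 0.0726), and HIST1H4C was. Of the RNAs known to lack a polyA tail, 9 of 10 were in the table and 3 were tested. RPPH1, the RNA of ribonuclease P, averaged 0.771 ± 0.217 CPM in Biosimilar, 1.47 ± 0.545 in Herceptin and 1.28 ± 0.5 in Control and fell with the biosimilar (log2 fold change -0.70, adjusted p = 0.0237). RN7SL1 and RN7SL2 did not pass either test, so that 1 of the 3 was called with the biosimilar and 0 with Herceptin. The list summed to 41.4 to 145 CPM in Biosimilar, 36.5 to 114 in Herceptin and 44.8 to 219 in Control. These ranges overlapped. The part of these measures in the values of HIST1H4C and HIST1H2BJ was not tested.

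**Figure D4:**
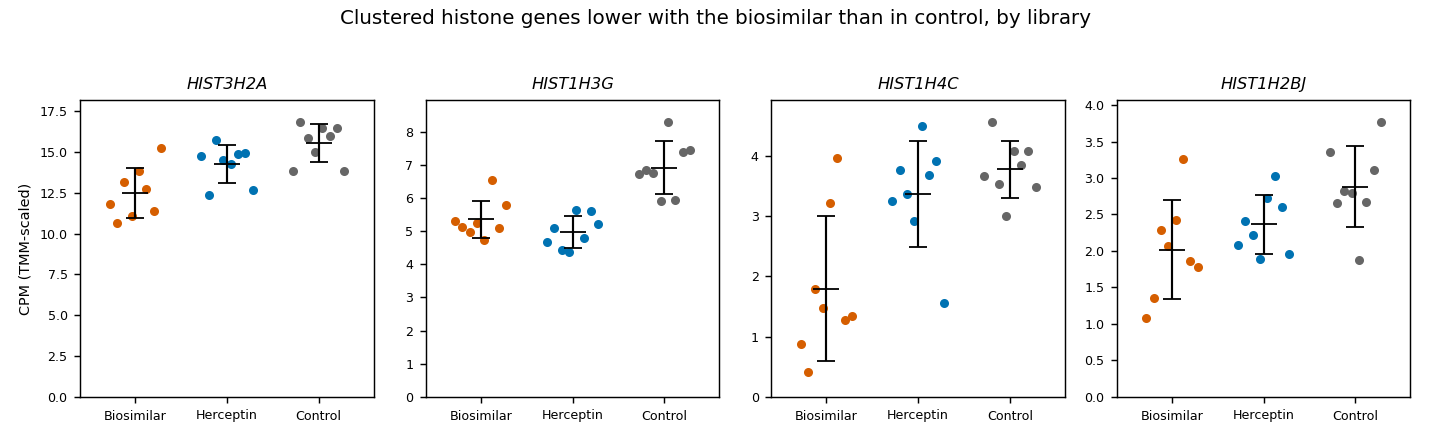
CPM of the 4 genes that fell with the biosimilar, 1 point per library, for Biosimilar, Herceptin and Control (8 libraries each), with mean and SD as bars and axes starting at 0. Points of a group stand in the order of their numbers. HIST1H4C shows 6 Biosimilar libraries below every Control library and 2 within the Control range, while HIST1H3G is lower in both antibody groups.

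HIST2H2AA3 and HIST2H2AA4 are near-identical H2A genes on chromosome 1, from 149842188 to 149842736 and from 149851061 to 149851624. With expected counts rounded, HIST2H2AA3 was above 0 in 5 Biosimilar and 5 Herceptin libraries, reaching 7.42 and 2.66 CPM, and at 0 in all 8 Control libraries, where its highest expected count was 0.05. HIST2H2AA4 had 14.3, 21.6 and 25.3 CPM in Biosimilar, 23.4, 24.6 and 27 in Herceptin and 17.2, 19.1 and 22.5 in Control. The libraries with the most HIST2H2AA3 (Biosimilar replicates 2 and 4) had the least HIST2H2AA4. Taken alone, HIST2H2AA4 rose with Herceptin (log2 fold change 0.37, SE 0.0853, adjusted p = 0.000758) and did not pass with the biosimilar (0.081, SE 0.0893, adjusted p = 0.484). HIST2H2AA3 passed the filter only through the groups in which it was above 0, and with Control at 0 no fold is given for it. Since RSEM divided the reads of the 2 genes, their separate tests say nothing of the pair.

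Summed, the pair had 21.8, 23.5 and 28.9 CPM in Biosimilar, 24.6, 26.4 and 27 in Herceptin and 17.2, 19.1 and 22.5 in Control. The sum lay above every Control library in 7 of 8 Biosimilar and 8 of 8 Herceptin libraries. In a fit with the copies summed, a choice made after seeing the data, the pair rose by a log2 fold change of 0.30 with the biosimilar (SE 0.0555, adjusted p = 2.44e-05) and 0.42 with Herceptin (SE 0.054, adjusted p = 1.89e-08).

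The H4 copies HIST2H4A, from 149832659 to 149839767, and HIST2H4B, from 149854045 to 149861210 on chromosome 1, were split in the same way. HIST2H4A had 6.90, 9.68 and 14.9 CPM in Biosimilar, 8.92, 12.6 and 16.4 in Herceptin and 7.87, 11 and 15 in Control. HIST2H4B had 1.05, 8.31 and 9.09 CPM in Biosimilar, 0, 5.99 and 8.90 in Herceptin and 0.0970, 4.77 and 8.78 in Control. All ranges overlapped, and neither gene passed a test alone. Their sum had 15.3 to 19.8 CPM in Biosimilar, 16.4 to 19.7 in Herceptin and 13.3 to 18.1 in Control. The sum rose with Herceptin by 0.17 (SE 0.0591, adjusted p = 0.0175) and had 0.093 with the biosimilar (SE 0.0606, adjusted p = 0.213). HIST2H4A overlaps HIST2H3C, and HIST2H4B overlaps HIST2H3A, on opposite strands.

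**Figure D5:**
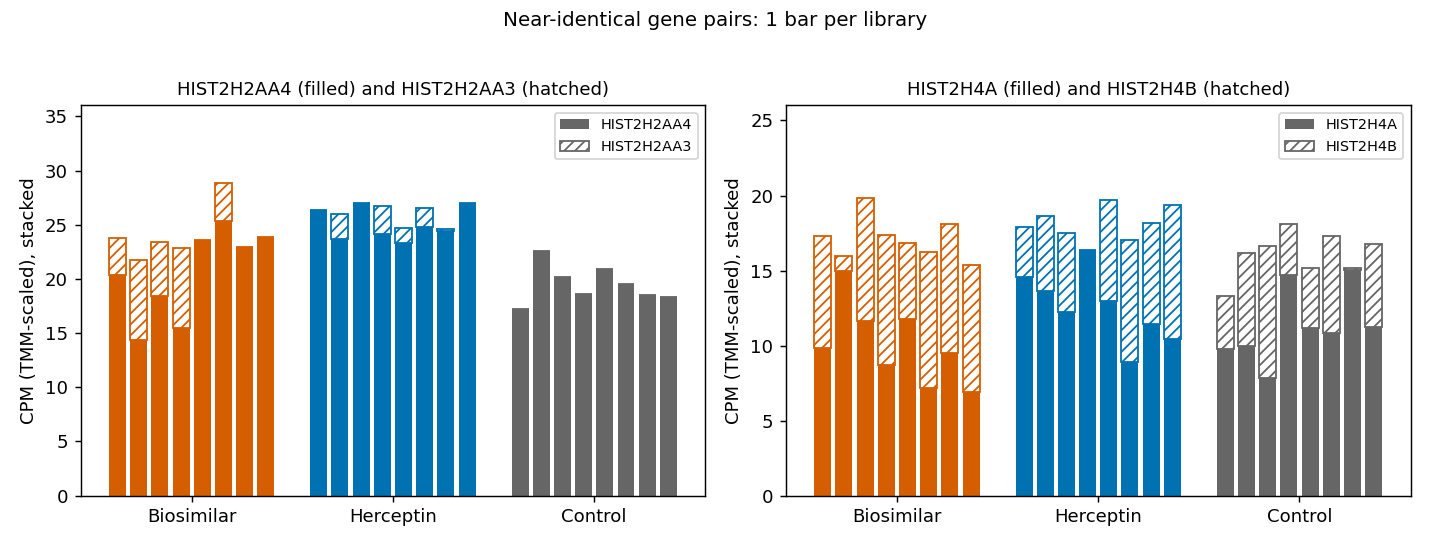
CPM of HIST2H2AA4 with HIST2H2AA3 stacked on it (left) and of HIST2H4A with HIST2H4B stacked on it (right), 1 bar per library, for Biosimilar, Herceptin and Control (8 libraries each). HIST2H2AA3 rounds to 0 counts in every Control library, and the HIST2H2AA sums of 7 Biosimilar and all 8 Herceptin libraries stand above the highest Control sum of 22.5 CPM.

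Summed over all 69 genes, the histone mRNAs held 249 to 276 CPM in Biosimilar, 261 to 278 in Herceptin and 222 to 248 in Control. Every antibody-treated library lay above every Control library in this sum, in which the highest genes count most. By type, the H1 sum averaged 23.9 ± 1.53 CPM in Biosimilar, 27.2 ± 1.81 in Herceptin and 19.2 ± 2.26 in Control (SD, n = 8 each). The H2A sum averaged 84.9 ± 5.11 CPM in Biosimilar, 88.5 ± 3.43 in Herceptin and 76.1 ± 2.86 in Control, and the H2B sum 94.1 ± 2.92 in Biosimilar, 95.6 ± 3.70 in Herceptin and 82.5 ± 5.25 in Control. The H3 sum averaged 22.1 ± 0.853 CPM in Biosimilar, 21.0 ± 1.65 in Herceptin and 21.0 ± 1.47 in Control, and the H4 sum 36.4 ± 3.01 in Biosimilar, 39.0 ± 1.55 in Herceptin and 35.1 ± 1.42 in Control.

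Compared directly, the biosimilar and Herceptin differed for no member at the threshold among genes that passed the filter on low counts. edgeR called 0 of 30 members and 0 of 13536 genes (0% of all), with 6 members and 722 genes at an unadjusted p under 0.05. DESeq2 called 8 genes, limma-voom 0 and the fit with a replicate block 14, and none of these was a member. With no filter on low counts edgeR called 2 members, HIST2H2AA4 (adjusted p = 0.00682) and HIST1H4C (adjusted p = 0.03), both lower with the biosimilar. The Biosimilar and Herceptin ranges overlapped for all 30 members, and did not for 0.0296% of all genes. The 6 members were HIST1H1C, HIST2H2AA4, HIST1H4C, HIST3H2A, HIST1H2BC and HIST2H4A, all lower with the biosimilar. Of these, HIST2H2AA4 and HIST2H4A share reads with copies that went the other way. HIST2H2AA3 had a log2 difference of 1.70 (adjusted p = 0.939) and HIST2H4B 0.37 (adjusted p = 0.98). RSEM divided the reads of each pair, so that the direction of 1 copy alone says nothing of the pair. HIST1H1C had a log2 difference of -0.19 (95% interval -0.30 to -0.072, adjusted p = 0.716), HIST3H2A -0.20 (-0.33 to -0.058, adjusted p = 0.797) and HIST1H2BC -0.36 (-0.63 to -0.082, adjusted p = 0.893). HIST1H4C had -0.87 (-1.42 to -0.33, adjusted p = 0.719), which is a fold of 0.546 (0.374 to 0.798). For the HIST2H2AA sum the difference was -0.13 (SE 0.052, adjusted p = 0.893), and for the sum of HIST2H4A and HIST2H4B -0.076 (SE 0.0583, adjusted p = 0.964). At the other end, HIST2H2BE had -0.0023 (-0.15 to 0.14) and HIST1H2AC 0.015 (-0.088 to 0.12). A p that misses the threshold does not show that the 2 antibodies act alike on these genes.

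Genes that control or process these mRNAs, and related lists, are read beside all tested genes, of which 23.4% rose and 24.6% fell with the biosimilar and 22.7% rose and 23.8% fell with Herceptin. No test set a list against other genes. Of the 6 genes listed for histone transcription, 4 fell with each antibody, 1 rose with the biosimilar and none with Herceptin. CCNE2, a cyclin that activates CDK2 at the start of S phase, averaged 11.2 ± 1.03 CPM in Biosimilar, 11.9 ± 1.36 in Herceptin and 16.9 ± 2.76 in Control and fell by log2 fold changes of -0.59 with the biosimilar (adjusted p = 3.17e-07) and -0.51 with Herceptin (adjusted p = 2.95e-06). CDK2 fell by -0.18 with the biosimilar and -0.21 with Herceptin. NPAT, the coactivator that cyclin E and CDK2 phosphorylate at the histone clusters, averaged 43.8 ± 3.02 CPM in Biosimilar, 39.2 ± 3.11 in Herceptin and 37.5 ± 2.01 in Control. It rose with the biosimilar (log2 fold change 0.22, adjusted p = 0.000156) and did not pass with Herceptin (0.064, adjusted p = 0.287). The difference between the antibodies was 0.16 (SE 0.0468, adjusted p = 0.671).

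Of 12 genes of stem-loop processing, 2 rose and 6 fell with the biosimilar, and 1 rose and 8 fell with Herceptin. SLBP, which binds the stem-loop, averaged 56.3 ± 3.21 CPM in Biosimilar, 56.0 ± 1.52 in Herceptin and 65.8 ± 3.88 in Control and fell by log2 fold changes of -0.22 with the biosimilar (adjusted p = 5.32e-06) and -0.23 with Herceptin (adjusted p = 2.31e-06). LSM10, a subunit of the U7 snRNP, fell by -0.41 with the biosimilar and -0.30 with Herceptin, and SRRT by -0.23 and -0.16. Of 4 genes of histone mRNA turnover, 1 rose and 2 fell with the biosimilar, and 1 rose and 1 fell with Herceptin. TUT7, a terminal uridylyltransferase, rose by 0.31 with the biosimilar and 0.36 with Herceptin, ERI1, the exonuclease that trims the stem-loop end, fell by -0.12 and -0.14, and LSM1 fell with the biosimilar by -0.19 and had -0.098 with Herceptin.

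Of 12 genes listed as replication-independent histones, which are not limited to S phase, 10 were tested, and 6 fell and none rose with each antibody. H2AFX, which encodes the H2A.X variant phosphorylated at DNA breaks, averaged 72.8 ± 3.48 CPM in Biosimilar, 72 ± 2.49 in Herceptin and 94.5 ± 5.26 in Control, with log2 fold changes of -0.38 with the biosimilar and -0.39 with Herceptin. H1FX fell by -0.53 with the biosimilar and -0.41 with Herceptin, and CENPA, the H3 variant of centromeres, by -0.40 and -0.49. Of 20 histone chaperone genes, 13 fell and none rose with each antibody, among them ANP32E (-0.38 with each antibody), HJURP (-0.30 with the biosimilar and -0.25 with Herceptin) and IPO4 (-0.19 and -0.22).

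Of 14 genes used as a measure of S phase, 11 fell and none rose with the biosimilar, and 13 fell and none rose with Herceptin. The list's median log2 fold change was -0.23 with each antibody. RRM2, a subunit of ribonucleotide reductase, averaged 284 ± 6.9 CPM in Biosimilar, 282 ± 12.1 in Herceptin and 376 ± 12.5 in Control, log2 fold changes of -0.40 with the biosimilar and -0.41 with Herceptin. TYMS fell by -0.36 and -0.39, and CCNA2, the cyclin of S phase, by -0.46 and -0.45. In these same libraries, 10 members rose and 4 fell with the biosimilar, and 10 rose and 1 fell with Herceptin. The part of S phase in the values of the members was not tested. In the direct comparison edgeR called none of the genes in these lists.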

How the data were processed

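RNA abundance was measured by polyA-selected RNA-seq in 24 libraries of SKBR3 cells, 8 each from biosimilar-treated, Herceptin-treated and untreated cells. Per the labels' protocols, the TruSeq Stranded mRNA kit was used, with paired reads of 126 bases. Per the submitters' processing notes, FastQC, STAR and RSEM were used with GRCh38.p12. Not given in the sources used here are the annotation release, trimming and strand setting. The authors deposited RSEM expected counts per gene, which divide reads that match several places and need not be whole. Across genes and libraries, 9.29% of these values had a fractional part.

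Expected counts were rounded, with library totals changing by up to 0.000456%. edgeR 4.0.16 (R 4.3.3, limma 3.58.1) fitted all 24 libraries with group as the single term, TMM factors, filterByExpr and the robust quasi-likelihood F test. P-values were adjusted by Benjamini-Hochberg over 13536 genes and called under 0.05, and the prior count in fold changes was 0.125. CPM used TMM-scaled totals, and TPM the effective lengths in the deposited table. Libraries of a group differed by more than sampling noise (chi-square per degree of freedom 1.51 to 7.91 over 84 pairs), so that none was treated as a copy of another, which does not show that they came from separate cultures. The common coefficient of variation was 4.9%. Counting error limits genes under 1 CPM, where a library holds about 10 counts or fewer.

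The members and gene lists were chosen with earlier results of these data known. The rule for names took every member at 1 CPM or more, gave the 10 highest in full, up to 5 tested members below 1 CPM and up to 3 genes of each other list by smallest p. The head-to-head example, the names of members at 0 and the single-library values of HIST1H4C were added after values were seen. Gene positions and transcripts are from GENCODE v29 (GRCh38), which held all 69 members and all 99 of their deposited transcripts, and promoters from RefSeq (GRCh38.p14). The build patch differs from that of the authors and gene models are used only as descriptions. DESeq2 1.42.0, limma-voom, other scaling, other filters, a replicate block, leaving out each library and leaving out members whose counts were mostly not whole were the alternatives, with summed copies and a length-trend offset added after seeing the data.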

Additional observations from a re-analysis of the deposited data

Results flagged for a closer look

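In 96 groups of 8 libraries (the named members and the summed copies in each group), 4 held a library whose gap to its nearest neighbour was large beside the group's range, where chance alone gives about 1 in 20. All 4 were high values. HIST2H2BC stood at 30.2 CPM in Biosimilar replicate 3, against 25.3 to 27.1 in the other 7 Biosimilar libraries. HIST2H2BE stood at 12.7 CPM in Biosimilar replicate 8, against 9.96 to 10.8 in the others of its group. HIST1H2BC stood at 5.18 CPM in Herceptin replicate 3, against 2.69 to 3.4 in the others, and it kept its Herceptin call without that library. The sum of HIST2H2AA4 and HIST2H2AA3 stood at 28.9 CPM in Biosimilar replicate 6, against 21.8 to 23.9 in the others. HIST1H4C, with 2 Biosimilar libraries within the Control range, was not among them because these 2 lay close together.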

How the results depend on the processing

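No member that passed the test reversed its direction under any alternative. Counts of members that rose or fell stayed within 1.5 times the main count, except with no filter on low counts, where 2 members fell with Herceptin (1 with the filter), HIST1H3G and HIST1H2AJ (mean 0.0486 CPM, adjusted p = 0.0393), and 2 differed between the biosimilar and Herceptin (0 with the filter). The 2 that differed were HIST2H2AA4 (adjusted p = 0.00682) and HIST1H4C (adjusted p = 0.03). For these, the fits that left out 1 library gave adjusted p up to 0.999 each, and the other alternatives up to 0.778 and 0.795. The cause was not tested. With no filter HIST1H3E lost its Herceptin call (adjusted p = 0.0559) and HIST1H2BF its biosimilar call (0.0533). HIST1H3H lost its call under 5 of 10 alternatives with Herceptin and 2 of 10 with the biosimilar (adjusted p up to 0.118 and 0.108). With the length-trend offset HIST1H2BJ lost its biosimilar call, and HIST2H2AA4 (adjusted p = 0.0092) and HIST1H2BC (0.0486) gained one. DESeq2 called HIST2H2AA3 with Herceptin (adjusted p = 0.00314).

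Replicate numbers recur across groups, but same-numbered libraries did not all deviate together (correlations -0.0779 to 0.102, with 1 of 24 pairs over 0.1). The best match of 7 of 24 libraries shared their number, where 3 would if numbers carried no information. With the replicate block, 10 members rose and 4 fell with the biosimilar, 9 rose and 1 fell with Herceptin and 0 differed between antibodies. Leaving out each library in turn gave 9 to 11 risen and 4 to 5 fallen with the biosimilar, 9 to 10 risen and 1 fallen with Herceptin, and 0 that differed between antibodies. Depth limits the 39 members outside the filter. With no filter, 2 of them passed: HIST1H2AJ with Herceptin, and HIST1H2AH as lower with the biosimilar (mean 0.0439 CPM, adjusted p = 0.0238). HIST1H2AJ was at 0 in all Herceptin and 6 Control libraries, and HIST1H2AH in all Biosimilar and 5 Control libraries.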
